A study of Callithrix jacchus with 39 samples.

Results

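FOS and FOSB are immediate early genes that encode partners of the AP-1 transcription factor. The pair was taken from a gene count table by its marmoset gene IDs, ENSCJAG00000020633 for FOS and ENSCJAG00000012636 for FOSB, and makes up 2 of 30811 genes in the table. Both were chosen by measured values of these libraries: the spread within N40 primed cells, the direction of the naive change in each line and the levels across embryo stages were used, so those values are given as a description with no test. The data are poly(A)+ RNA sequencing counts of common marmoset (Callithrix jacchus) embryonic stem cells (ESCs) and early embryos, in 39 libraries that form 13 groups of 3. The 6 ESC groups are naive DSY-c2 cells titled TgON, primed DSY-c2 cells titled Tg, naive N40 cells titled TgOFF, primed N40 cells titled Tg, and primed cells of the lines DSY127 and No.40. The labels do not say what Tg stands for, which culture conditions set the naive state, or whether DSY-c2 and N40 were made from DSY127 and No.40, and TgON or TgOFF cannot be told apart from the cell line. The 7 embryo groups are morulae, inner cell mass (ICM) from 5 blastocyst stages (early blastocyst, blastocyst, expanded, hatching and hatched), and the epiblast after implantation.

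Immediate early genes are transcribed within minutes of a stimulus, from pre-existing factors and without new protein synthesis, and their mRNAs are short-lived. FOS and FOSB are basic leucine zipper proteins that bind DNA only as dimers, mainly with JUN family partners, and the ERK kinases reach the FOS promoter through SRF and its ternary complex partners while cAMP signals reach it through CREB1. Primed ESCs resemble the epiblast after implantation and depend on FGF and ERK signalling, while naive ESCs resemble the earlier ICM and are often grown with an inhibitor of the kinases above ERK.

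Total counts lay between 38.8 and 78.7 M (mega) in ESC libraries and between 45.3 and 59.0 M in embryo libraries. Levels are in CPM, counts divided by the library total in M after TMM scaling over 39 libraries. FOS had from 503 to 33415 counts in every library, so counting error was small beside the spread between libraries. Marker genes were set against the labelled states: the summed level of 6 naive markers was 978 to 1100 CPM in DSY-c2 naive cells against 305 to 536 CPM in DSY-c2 primed cells, and 1590 to 1860 CPM in N40 naive cells against 180 to 199 CPM in N40 primed cells. DSY-c2 primed replicate 4 stood apart, with a primitive endoderm marker sum of 476 CPM against 59.7 and 42.8 CPM in replicates 2 and 5. Hatched blastocyst ICM replicate 1 had a trophectoderm marker sum of 1460 CPM, against 232 and 587 CPM in its other libraries. Whether replicates are separate cultures or embryos is not stated in the labels. An adjusted p therefore reflects only how far these libraries vary, and part of that may be technical.

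FOS was high and variable in N40 primed cells. It stood at 213, 422 and 23.2 CPM in replicates 1, 2 and 3, an 18.2-fold range between the highest and the lowest library. FOSB followed the same order, with 19.4, 83.0 and 6.47 CPM in replicates 1, 2 and 3. Each library was sequenced in 2 runs that were counted apart, and the runs gave 8763 and 8531 FOS counts in replicate 1, 16849 and 16566 in replicate 2, and 881 and 893 in replicate 3. The low replicate was thus low in both of its runs. The standard deviation (SD) of log2 CPM over these 3 libraries was 2.19 for FOS and 1.84 for FOSB, where the median gene with at least 10 CPM had 0.14. Of the 9297 genes at that level, 0 had a larger SD than FOS and 2 had a larger SD than FOSB. Since this spread took part in choosing the pair, a high rank follows from the choice and is a description only.

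N40 naive cells had little spread in FOS, with an SD of log2 CPM of 0.10 against 0.12 for the median gene with at least 10 CPM. The SD of FOSB was 0.33, above that median but below its 1.84 in N40 primed cells. FOS stood at 36.9, 41.0 and 41.7 CPM in N40 naive replicates 1, 2 and 3. Their mean of 39.9 ± 2.61 CPM lay below the N40 primed mean of 219 ± 199 CPM (SD, n = 3 each), but primed replicate 3 was lower than every naive library, so the groups overlapped. FOSB stood at 0.493, 0.574 and 0.787 CPM in N40 naive cells, below all 3 primed libraries. The log2 fold change, naive over primed, was -2.31 (SE 0.82) for FOS and -5.72 (SE 0.95) for FOSB. In this comparison 61% of all genes passed, and nothing is read from that share since these values chose the pair. Primed replicate 2 weighed on both genes: without it the FOS value was -1.48 and the FOSB value -4.31.

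DSY-c2 cells went the other way for FOS. The naive libraries had 101, 130 and 153 CPM in replicates 1, 2 and 3, and the primed libraries 37.9, 11.5 and 97.6 CPM in replicates 2, 4 and 5. The lowest naive library lay just above the highest primed one, so the groups did not overlap. In this comparison 58.8% of all genes passed. FOSB was no higher in DSY-c2 naive cells, with 3.43, 6.22 and 4.21 CPM against 3.25, 1.20 and 9.44 CPM in DSY-c2 primed cells, and here the groups overlapped. The log2 fold change, naive over primed, was 1.49 (SE 0.80) for FOS and 0.10 (SE 0.77) for FOSB. Without primed replicate 5 these values were 2.45 and 1.14, and without primed replicate 4, which holds the high primitive endoderm marker sum, they were 1.0 and -0.37. The DSY-c2 effect minus the N40 effect was 3.80 (SE 1.14) for FOS and 5.83 (SE 1.18) for FOSB. In this comparison 6.55% of all genes were called higher and 8.57% lower.

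The lines DSY127 and No.40, which carry no Tg in their titles, had moderate or low levels. FOS stood at 62.8, 68.2 and 28.6 CPM in DSY127 replicates 1, 2 and 3, and at 8.51, 16.0 and 20.7 CPM in No.40 replicates 1, 2 and 3. FOSB stood at 21.1, 20.7 and 7.53 CPM in DSY127 cells, against 3.30, 4.45 and 4.83 CPM in No.40 cells. Every DSY127 library was above every No.40 library for both genes. Replicate 3 was the low DSY127 library for both genes, and replicate 1 was the low No.40 library for both. In bulk samples such as these, a lower level in each cell and fewer cells with the transcript cannot be told apart.

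**Figure D1:**
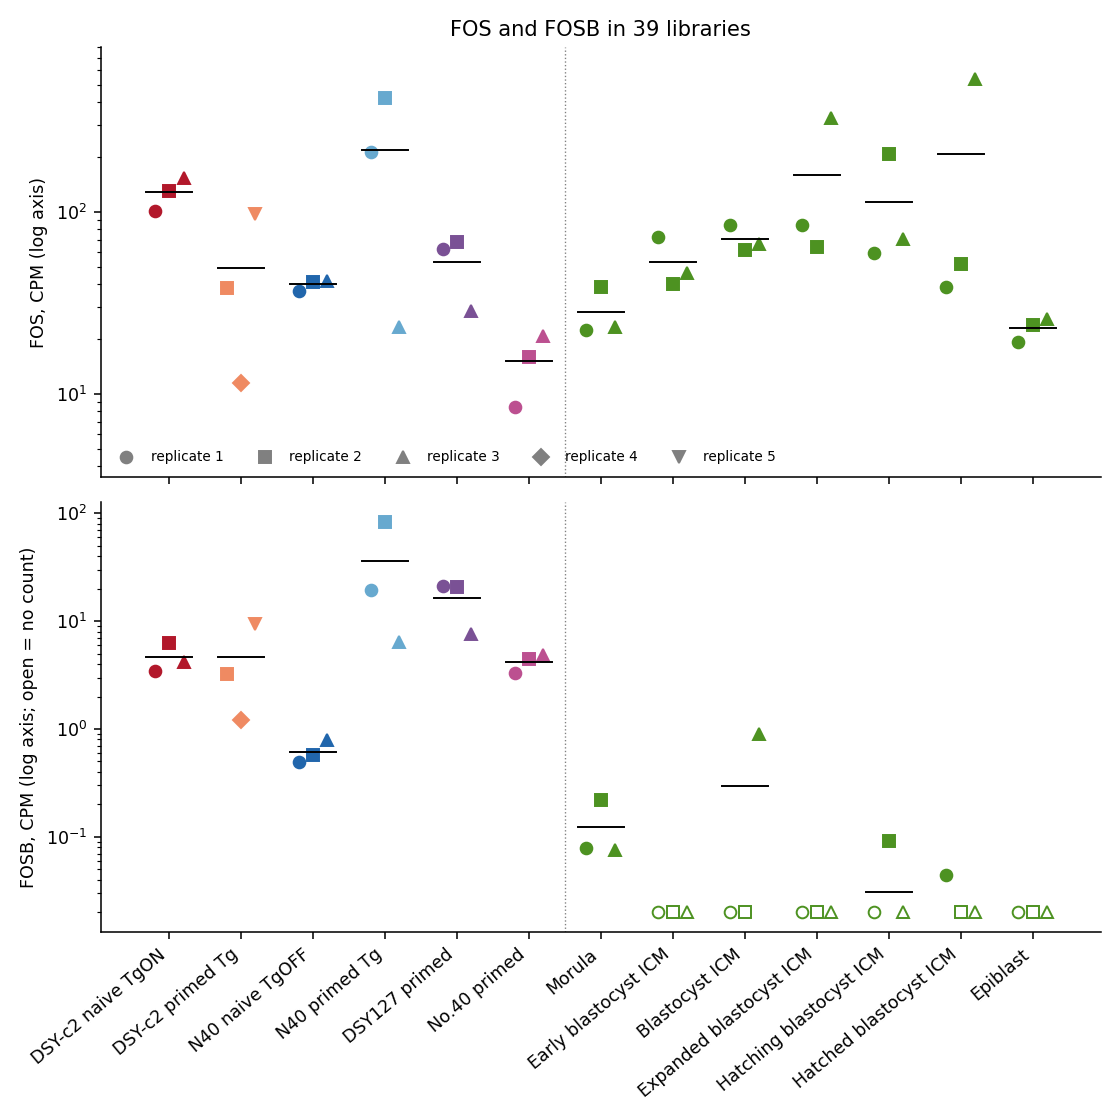
Levels of FOS (upper panel) and FOSB (lower panel) in CPM on log axes, with 1 symbol per library, its shape giving the replicate, and a bar at the mean of 3 libraries in each of 13 groups. Open symbols at the base stand for libraries with no FOSB count. FOS is present in all libraries, and its spread is widest in N40 primed cells (18.2-fold), hatched blastocyst ICM (13.9-fold) and DSY-c2 primed cells (8.47-fold), while FOSB is near or at 0 in embryos.

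In embryos FOS was present at every stage. The morula had 22.5, 38.4 and 23.3 CPM in replicates 1, 2 and 3, early blastocyst ICM 72.7, 40.3 and 46.0 CPM, and blastocyst ICM 84.5, 61.5 and 66.7 CPM. From the expanded blastocyst on, 1 library of each ICM group was far above the others. Expanded blastocyst ICM had 84.7, 64.1 and 329 CPM, hatching blastocyst ICM 59.1, 208 and 71.1 CPM, and hatched blastocyst ICM 38.5, 51.6 and 533 CPM. In the epiblast FOS was low and even, with 19.2, 23.9 and 25.9 CPM, below each ICM library and overlapping with the morula.

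The log2 fold change of FOS was 1.90 (SE 0.70) for the mean of 5 ICM stages over the morula, and -2.24 (SE 0.72) for the epiblast over the mean of those stages. In these comparisons 20.8% and 44.8% of all genes passed. With DESeq2 size factors in place of TMM the median of all genes in the epiblast comparison was 0.44 in place of 0.20, and the FOS value -2.01. The high hatched blastocyst library weighed on both comparisons, and without it the values were 1.47 and -1.71. The summed level of 8 heat shock genes was the lowest of its group in each of the 3 libraries with high FOS: it was 6420 CPM in expanded replicate 3 against 10200 and 9420 CPM, 9430 CPM in hatching replicate 2 against 10200 and 10700 CPM, and 7080 CPM in hatched replicate 3 against 9880 and 13000 CPM. The listed heat shock genes HSPA1A, HSPA1B and HSPE1 had no symbol match and are not in this sum. The cause of the high FOS levels was not tested. ZFP36, which encodes a protein that speeds decay of short-lived mRNAs, stood at 195 CPM in expanded replicate 3 against 63.9 and 42.1 CPM, and at 176 CPM in hatched replicate 3 against 64.6 and 32.7 CPM. In hatching ICM, by contrast, ZFP36 was highest in replicate 3, at 72.6 CPM, and not in replicate 2, which had 43.0 CPM.

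FOSB was close to absent from embryos. Of 21 embryo libraries, 15 had no FOSB count, which allows up to 0.0541 to 0.0663 CPM by a floor of 3 counts per library that covers counting error only. The morula had 4, 11 and 4 FOSB counts in replicates 1, 2 and 3, or 0.0791, 0.218 and 0.0759 CPM. Blastocyst ICM replicate 3 had 42 counts, or 0.893 CPM, while replicates 1 and 2 of that group had none. Hatching replicate 2 had 4 counts and hatched replicate 1 had 2. Hatched replicate 3 had 25694 FOS counts, the most of any embryo library, and no FOSB count. FOSB did not pass the filter on low counts in the embryo fit and has no fold change there.

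Ordered by mean, FOS was highest in N40 primed cells and then in hatched blastocyst ICM (208 ± 282 CPM), expanded blastocyst ICM (159 ± 148 CPM), DSY-c2 naive cells (128 ± 26.2 CPM), hatching blastocyst ICM (113 ± 82.6 CPM) and blastocyst ICM (70.9 ± 12.1 CPM). It was lower in DSY127 (53.2 ± 21.5 CPM), early blastocyst ICM (53.0 ± 17.3 CPM), DSY-c2 primed cells (49 ± 44.1 CPM), N40 naive cells, the morula (28.1 ± 8.96 CPM), the epiblast (23.0 ± 3.45 CPM) and No.40 (15.1 ± 6.16 CPM; SD, n = 3 in each group). All 12 pairs of neighbours in this order had overlapping libraries. FOSB was highest in N40 primed cells (36.3 ± 40.9 CPM), then in DSY127 (16.5 ± 7.74 CPM), DSY-c2 primed cells (4.63 ± 4.29 CPM), DSY-c2 naive cells (4.62 ± 1.44 CPM), No.40 (4.19 ± 0.797 CPM) and N40 naive cells (0.618 ± 0.151 CPM). Among the FOSB neighbours, 1 pair of 12 was separate: each No.40 library was above each N40 naive library.

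The balance between the genes separated all naive from all primed ESC libraries. It is given as FOSB counts per 100 FOS counts, a ratio that can be compared between libraries and not read as relative abundance, since the lengths of the transcripts are not used here. The 6 naive libraries had 1.34 to 4.79 FOSB counts per 100 FOS counts, with a median of 2.31, and the 12 primed libraries had 8.58 to 38.8, with a median of 24.9. Naive and primed libraries did not overlap, although both FOS and FOSB levels overlapped between these classes. The ratio is built from the values that chose the genes and has no test.

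Within each line the shift was downward in naive cells. DSY-c2 naive libraries had 3.41, 4.79 and 2.75 FOSB counts per 100 FOS counts, against 8.58, 10.4 and 9.68 in DSY-c2 primed libraries. N40 naive libraries had 1.34, 1.40 and 1.88, against 9.13, 19.7 and 27.9 in N40 primed libraries. The primed libraries of DSY-c2 were close to each other in this ratio although their FOS levels spanned an 8.47-fold range. DSY127 had 33.7, 30.4 and 26.4, and No.40 had 38.8, 27.8 and 23.3, all above each DSY-c2 primed library. The 21 embryo libraries had 0 to 1.34, with 1 of them, blastocyst ICM replicate 3, as high as the lowest naive ESC library. In hatched replicate 3, a floor of 3 counts allows up to 0.0117 FOSB counts per 100 FOS counts.

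**Figure D2:**
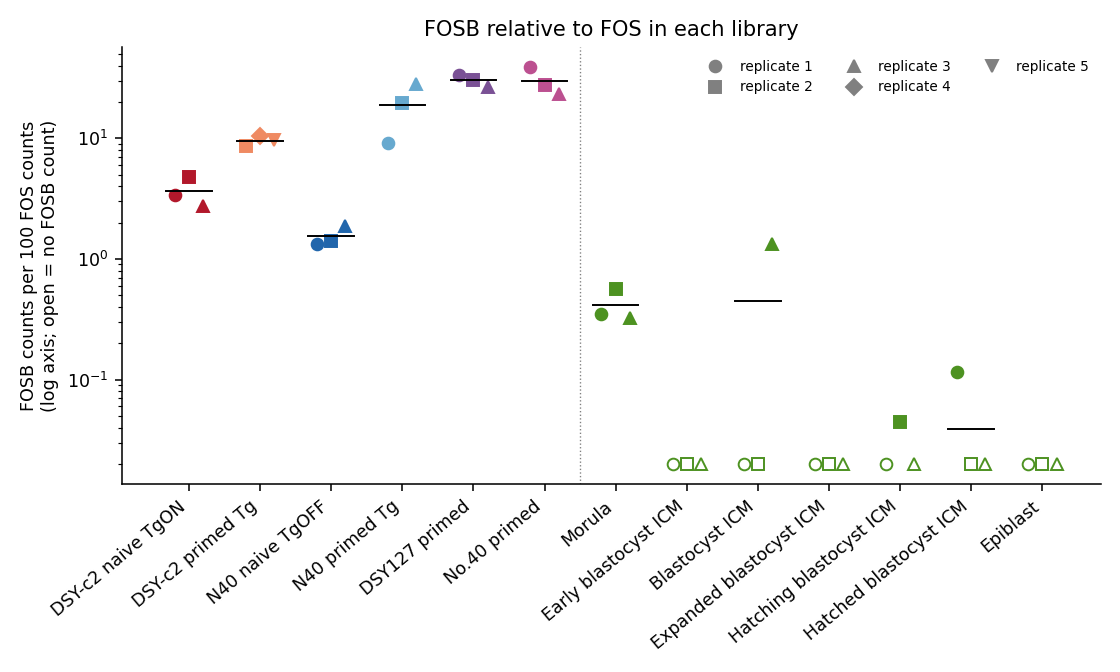
FOSB counts per 100 FOS counts on a log axis, with 1 symbol per library and a bar at the group mean. Open symbols at the base stand for libraries with no FOSB count. Naive ESC libraries lie between 1.34 and 4.79, primed ESC libraries between 8.58 and 38.8, and embryo libraries between 0 and 1.34.

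Among ESC libraries, FOS and FOSB tended to deviate together within a group, although DSY-c2 naive replicate 3 was the highest of its group in FOS and not in FOSB. To see this apart from the differences between groups, each library's log2 CPM was set against the mean of its group. Over 18 ESC libraries these deviations of FOS and FOSB had a Pearson's r of 0.93 and a Spearman's rho of 0.82. FOSB ranked 1 of 9913 genes by its r with FOS, and FOS ranked 1 by its r with FOSB. With the 3 N40 primed libraries left out, a choice made after seeing the data, r was 0.94 over 15 libraries and FOSB ranked 3 of 9909. Groups with a wide spread weigh most on r. The SD of log2 CPM of FOS was 2.19 in N40 primed and 1.54 in DSY-c2 primed cells, against 0.10 to 0.69 in the other ESC groups. The value of 0.94 thus rests largely on DSY-c2 primed cells, whose replicate 4 stood apart in primitive endoderm markers. The deviations of a group share its mean and sum to 0, and libraries share sequencing depth and cell make-up, so these values are a description.

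Across ESC and embryo libraries together the genes did not follow each other, while in ESC libraries alone they did so in part. Over 39 libraries the r of FOS with FOSB on log2 CPM was 0.04 and rho was 0.01. Over 18 ESC libraries r was 0.55 and rho was 0.46, and FOSB ranked 161 of 9913 genes by its r with FOS. In 21 embryo libraries, where most FOSB counts are 0, r was -0.10, and r of the deviations was 0.04. Other immediate early genes differed in how they deviated inside ESC groups. NPAS4, a transcription factor induced by calcium signals in neurons, had an r of 0.77 with FOS and 0.76 with FOSB over the 18 deviations. NR4A1, an orphan nuclear receptor that is an immediate early gene, had 0.61 with FOS and 0.71 with FOSB. Without the N40 primed libraries the r with FOS was 0.62 for NPAS4 and 0.47 for NR4A1. Other listed genes had low or negative r with FOS over the 18 deviations: CCN1 0.39, BTG2 0.34, MYC 0.04, ARC -0.13, SGK1 -0.22, ZFP36 -0.29 and KLF6, a zinc finger factor, -0.44.

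**Figure D3:**
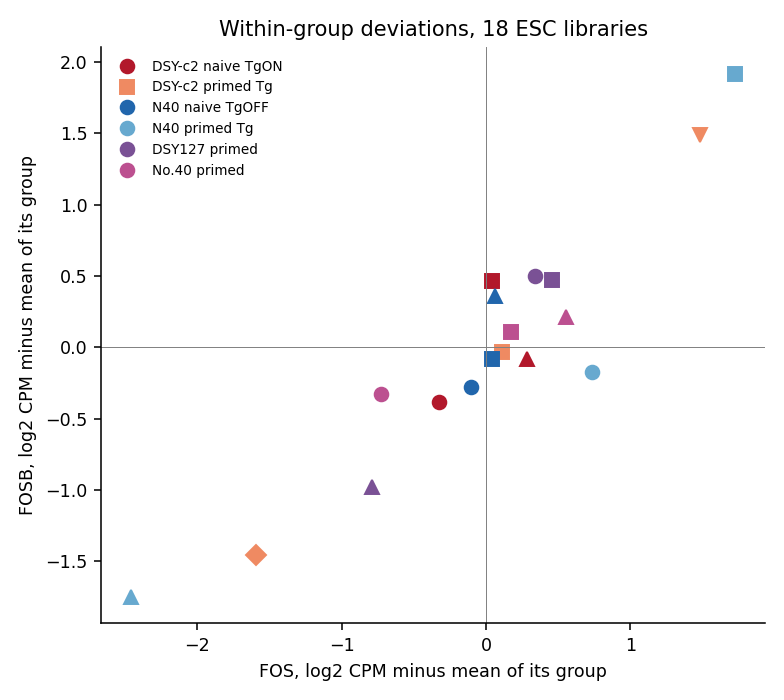
Deviation of FOSB (vertical axis) against deviation of FOS (horizontal axis) from the mean log2 CPM of the group, for 18 ESC libraries coloured by group, with the symbol shape giving the replicate (circle 1, square 2, upward triangle 3, diamond 4, downward triangle 5). The points run from N40 primed replicate 3 at the lower left to N40 primed replicate 2 at the upper right, with an r of 0.93.

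Ranked by r over 39 libraries, the genes most like FOS were HIBADH (0.58), TIMM17B (0.57), CHCHD6 (0.56), PSMG4 (0.55) and SMIM19 (0.55), among 9990 genes with a symbol and a mean of at least 1 CPM. For FOSB they were IFNLR1 (0.91), PRKG1 (0.91), SEMA3G (0.89), RAP1GAP2 (0.89) and CARHSP1 (0.89). By deviations from group means over 39 libraries, the genes most like FOS were FAM184B (0.65), TSPAN15 (0.62), MUTYH (0.61), WASF1 (0.60) and HNRNPDL (0.59). For FOSB they were CXCL14 (0.68), ISYNA1 (0.64), TULP1 (0.63), TCOF1 (0.63) and UNC45A (0.61). The high values for FOSB over 39 libraries go with its near absence from embryos, so genes that are low in all embryo libraries score high by construction.

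The low N40 primed replicate was not low across the immediate early genes that could be measured. Of 35 listed genes of this kind, 21 had a symbol match, and EGR1, IER2, DUSP1 and ATF3 were among those without one. Of the 21 immediate early genes tested beside FOS and FOSB, 6 (28.6%) were lowest in replicate 3, where 37.9% of all 17957 tested genes were, and 9 (42.9%) were highest there, where 30.5% of all genes were. The genes named here were chosen after their values were seen. NPAS4 came nearest to the pair, with 1.18, 1.84 and 0.288 CPM in replicates 1, 2 and 3. CCN1, a secreted matricellular protein, had 596, 1160 and 406 CPM, and BTG2, an antiproliferative regulator, had 42.7, 50.6 and 26.0 CPM. These genes share with FOS and FOSB a highest level in replicate 2 and a lowest in replicate 3. The gap is the log2 of the mean CPM of replicates 1 and 2 minus the log2 CPM of replicate 3, with a small constant added. It was 3.77 for FOS, 2.96 for FOSB, 2.06 for NPAS4, 1.11 for CCN1 and 0.84 for BTG2. As a log2 of a mean, it is weighted toward the higher of replicates 1 and 2.

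Other immediate early genes ran against the pair. SGK1, a kinase downstream of PI3K signalling, had 422, 635 and 952 CPM in replicates 1, 2 and 3, and PLK3, a polo-like kinase, had 3.90, 6.49 and 11.1 CPM. DUSP2, a phosphatase that inactivates ERK, had 0.689, 0.732 and 2.09 CPM. All 3 were highest where FOS was lowest. All 6 tested genes of ERK feedback were likewise highest in replicate 3, though SPRY2 among them lay below a floor of 3 counts in this group. All 5 mesoderm and all 5 pluripotency markers were highest there too. Of all tested genes, 30.5% were highest and 37.9% lowest in replicate 3. Among other lists, 8 of 19 regulators above FOS and 7 of 11 genes that AP-1 can activate were highest there. So were 2 of 6 naive and 2 of 6 primed markers. The mesoderm sum was 6.38, 9.0 and 11.1 CPM and the pluripotency sum 2690, 2870 and 3070 CPM in replicates 1, 2 and 3, while 6 of 8 heat shock genes were lowest in replicate 3, with a sum of 11800, 10500 and 10100 CPM, and 0 of 6 fibroblast markers were highest there, with a sum of 842, 720 and 595 CPM. The part of these lists in the FOS difference was not tested.

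**Figure D4:**
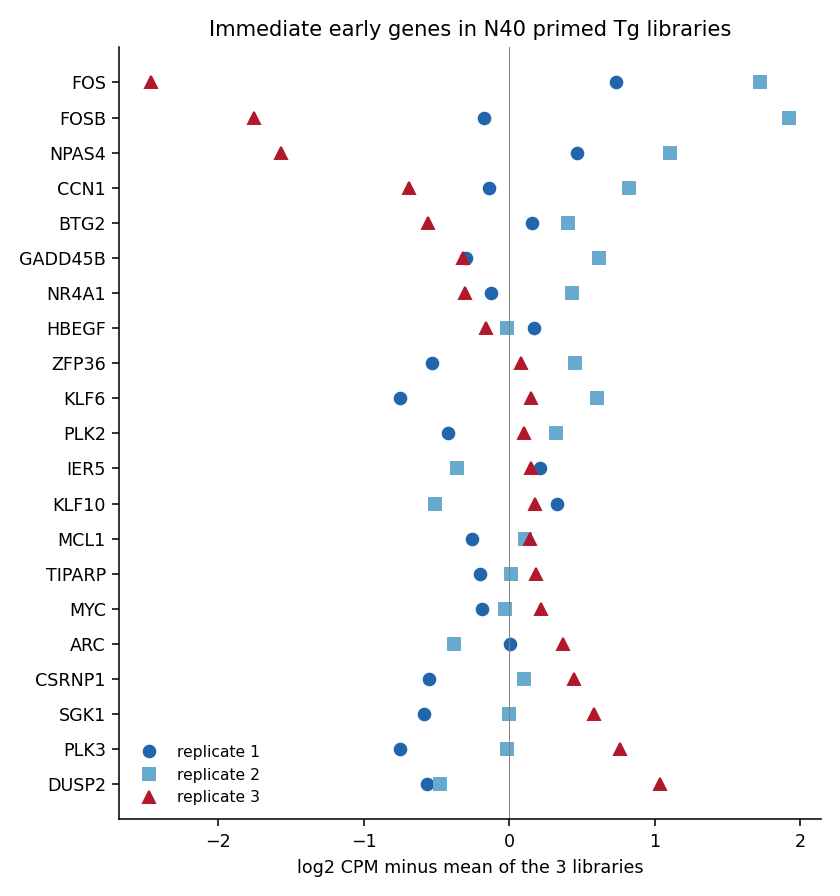
Immediate early genes in the 3 N40 primed libraries, as log2 CPM minus the mean of the 3 libraries (horizontal axis), for FOS, FOSB and the 19 other listed genes with at least 1 CPM, sorted by the gap between replicates 1 and 2 and replicate 3. FOS, FOSB and NPAS4 have the widest gaps with replicate 3 lowest, and DUSP2, PLK3 and SGK1 have replicate 3 highest.

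The choice of the pair did not name the comparison of DSY127 with No.40, but it drew on levels in all 13 groups, these lines included. The values of the pair are thus given as a description with no test. DSY127 minus No.40 gave a log2 fold change of 1.83 (SE 0.82) for FOS and 1.98 (SE 0.79) for FOSB. Each gene was higher in 3 of 3 DSY127 libraries than in any No.40 library. In this comparison 802 genes (4.47%) passed the threshold of 0.05, 2.65% of all genes higher and 1.82% lower, and nothing is read from that share about the pair. No.40 replicate 1 comes from columns whose names end in L6 and L7, while the other libraries of these lines end in L1 and L2, and without it the values were 1.52 for FOS and 1.81 for FOSB. Of 71 tested list genes described below, 1 passed: SGK1 was lower in DSY127, at 82.5 ± 2.66 CPM against 261 ± 30.8 CPM in No.40 (log2 fold change -1.65, edgeR adjusted p = 0.0468). That call was lost without any 1 of 5 libraries, all but No.40 replicate 1, with an edgeR adjusted p of 0.106 to 0.147.

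DSY-c2 primed cells were compared with DSY127. The log2 fold change was -0.18 (SE 0.79) for FOS and -1.89 (SE 0.79) for FOSB, given with no test since the DSY-c2 primed libraries took part in choosing the genes. Leaving out 1 library moved the FOS value between -1.12 and 0.34. Of all genes 1.88% passed, 0.156% higher and 1.72% lower, and of the list genes 0 passed by edgeR and 1 by the DESeq2 test. All DSY-c2 primed libraries come from columns ending in L6 and L7 and all DSY127 libraries from columns ending in L1 and L2, so these columns and the cells cannot be told apart.

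Each N40 primed library was above each No.40 library for both genes. The log2 fold change, N40 primed over No.40, was 3.76 (SE 0.88) for FOS and 3.01 (SE 0.82) for FOSB. Since the values of the N40 primed libraries took part in choosing the genes, these are a description with no test. In this comparison 21.9% of all genes passed, 8.3% higher, and nothing is read from that share about the pair. Without N40 primed replicate 2 the values were 2.90 for FOS and 1.56 for FOSB. Without No.40 replicate 1, which leaves libraries of columns ending in L1 and L2 alone, they were 3.57 for FOS and 2.95 for FOSB.

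Listed genes of the pathway moved in both directions in this comparison. Of 21 immediate early genes, 7 rose and 2 fell in N40 primed cells against No.40, where 8.3% of all genes rose and 13.6% fell. The list's median log2 fold change was 0.50 against -0.05 over all genes. ARC, an immediate early gene of neurons, rose to 15.6 ± 4.0 CPM in N40 primed cells, against 3.32 ± 0.317 CPM in No.40 (log2 fold change 2.12, edgeR adjusted p = 0.000236). CCN1 rose to 721 ± 393 CPM in N40 primed cells, against 149 ± 31.6 CPM in No.40 (2.16, edgeR adjusted p = 0.0292), a call lost without N40 primed replicate 2 (0.11), No.40 replicate 1 (0.0642) or No.40 replicate 3 (0.0608). IER5 fell to 1.90 ± 0.379 CPM in N40 primed cells, against 8.19 ± 3.98 CPM in No.40 (-2.23, edgeR adjusted p = 0.000756), and NR4A2, an orphan nuclear receptor, fell to 0.613 ± 0.179 CPM in N40 primed cells, against 6.93 ± 6.85 CPM in No.40 (-3.62, edgeR adjusted p = 0.00155).

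Among listed genes that AP-1 can activate, 0 of 11 rose and 3 fell, where 8.3% of all genes rose and 13.6% fell. With so few genes, nothing is read from the absence of a rise. MMP9, a gelatinase, had 2.35 ± 0.436 CPM in N40 primed cells and 96.7 ± 150 CPM in No.40 cells (log2 fold change -5.49, edgeR adjusted p = 0.00796), a call lost with only these groups in the fit (0.112), and the value without No.40 replicate 2 was -2.13. SPRY2, an inhibitor of ERK signalling, had 0.0171 ± 0.0148 CPM in N40 primed cells and 1.26 ± 0.426 CPM in No.40 cells (-6.17, edgeR adjusted p = 5.91e-05). The N40 primed level of SPRY2 lay below a floor of 3 counts, 0.0381 to 0.04 CPM in these libraries, so the size of its change is uncertain. Markers of other cells also moved: 4 of 6 fibroblast markers fell, with a sum of 595 to 842 CPM in N40 primed cells and 1150 to 2020 CPM in No.40, and 2 of 5 mesoderm markers fell, with sums of 6.38 to 11.1 CPM and 14.2 to 124 CPM. CDX2, a trophectoderm marker, had no count in N40 primed cells. The part of these cells in the results was not tested.

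Relatives of FOS in the naive and primed cells of both lines could be followed in 72 of 106 listed genes, those with a symbol in the gene name table. JUN, JUNB, JUND, FOSL2, ATF3, EGR1, IER2, DUSP1 and DUSP6 are not analysed here for want of that match. FOSL1, the AP-1 subunit FRA-1, was the measured FOS relative, and it rose in naive cells of both lines. It reached 7.63 ± 1.17 CPM in DSY-c2 naive cells against 1.12 ± 0.197 CPM in primed cells (log2 fold change 2.87, SE 0.73, edgeR adjusted p = 0.00314), and 4.61 ± 1.69 CPM in N40 naive cells against 0.499 ± 0.0917 CPM in primed cells (3.35, SE 0.76, edgeR adjusted p = 0.00117). Its naive and primed libraries overlapped in neither line. The difference of its effects between the lines, -0.48, did not pass (edgeR adjusted p = 0.796), and the value of FOSL1 was thus positive in both lines where that of FOS was positive in DSY-c2 and negative in N40. Of the other AP-1 factors, ATF2 rose to 80.1 ± 4.95 CPM in DSY-c2 naive cells against 50.5 ± 7.46 CPM in DSY-c2 primed cells (0.77, edgeR adjusted p = 3.57e-06) and to 67.9 ± 0.623 CPM in N40 naive cells against 36.8 ± 3.15 CPM in N40 primed cells (1.03, edgeR adjusted p = 1.21e-07).

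More immediate early genes fell than rose in naive cells. In DSY-c2, 4 of 21 rose and 9 fell, where 29.6% of all genes rose and 29.3% fell, and the list's median log2 fold change was -0.57 against 0.03 over all genes. In N40, 4 rose and 11 fell, where 32.3% of all genes rose and 28.7% fell, and the median was -1.40 against 0.09. Among those that fell in both lines was MYC, the growth regulator, at 63.0 ± 12.0 CPM in DSY-c2 naive cells against 215 ± 31.4 CPM in DSY-c2 primed cells (-1.67, edgeR adjusted p = 8.52e-08) and 49.5 ± 3.76 CPM in N40 naive cells against 306 ± 44.2 CPM in N40 primed cells (-2.48, edgeR adjusted p = 1.34e-09). CCN1 fell to 16.5 ± 12.1 CPM in DSY-c2 naive cells against 161 ± 77.3 CPM in DSY-c2 primed cells (-3.18, edgeR adjusted p = 0.00106) and to 5.15 ± 4.19 CPM in N40 naive cells against 721 ± 393 CPM in N40 primed cells (-6.98, edgeR adjusted p = 4.29e-06). ARC fell to 0.170 ± 0.0106 CPM in DSY-c2 naive cells against 2.83 ± 0.417 CPM in DSY-c2 primed cells (-3.94, edgeR adjusted p = 1.22e-07) and to 0.644 ± 0.276 CPM in N40 naive cells against 15.6 ± 4.0 CPM in N40 primed cells (-4.45, edgeR adjusted p = 1.53e-08).

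Among other immediate early genes, MCL1 rose and SGK1 fell in both lines. MCL1, an inhibitor of apoptosis, rose to 660 ± 47.9 CPM in DSY-c2 naive cells against 218 ± 19.1 CPM in DSY-c2 primed cells (1.70, edgeR adjusted p = 1.02e-08), and rose in N40 too, to 668 ± 44.0 CPM in N40 naive cells against 275 ± 40.4 CPM in N40 primed cells (1.43, edgeR adjusted p = 4.47e-08). SGK1 fell to 16.0 ± 8.77 CPM in DSY-c2 naive cells against 74.9 ± 9.82 CPM in DSY-c2 primed cells (-2.13, edgeR adjusted p = 0.00092) and to 21.5 ± 13.4 CPM in N40 naive cells against 670 ± 267 CPM in N40 primed cells (-4.82, edgeR adjusted p = 1.25e-06). NPAS4, the gene nearest to the pair in the N40 primed libraries, fell to 0.0602 ± 0.0654 CPM in N40 naive cells against 1.10 ± 0.781 CPM in N40 primed cells (-4.01, edgeR adjusted p = 0.00167).

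Regulators above FOS moved in both directions. Of 19 such genes, 10 rose and 3 fell in DSY-c2 naive cells, and 10 rose and 4 fell in N40 naive cells, with a median log2 fold change of 0.28 in both. Of all genes 29.6% rose and 29.3% fell in DSY-c2, and 32.3% rose and 28.7% fell in N40. MAP2K1, the kinase MEK1 that activates ERK, rose to 237 ± 9.04 CPM in DSY-c2 naive cells against 102 ± 4.14 CPM in DSY-c2 primed cells (1.32, edgeR adjusted p = 4.06e-09). STAT3, the LIF pathway factor that can activate FOS, rose to 248 ± 42.4 CPM in DSY-c2 naive cells against 90.0 ± 9.12 CPM in DSY-c2 primed cells (1.57, edgeR adjusted p = 1.82e-06) and to 182 ± 34.6 CPM in N40 naive cells against 92.0 ± 20.1 CPM in N40 primed cells (1.13, edgeR adjusted p = 4.18e-05). RPS6KA2, an ERK-activated kinase, fell to 1.82 ± 0.374 CPM in DSY-c2 naive cells against 10.8 ± 2.59 CPM in DSY-c2 primed cells (-2.46, edgeR adjusted p = 9.82e-07). SRF, the factor that binds the FOS promoter with ELK1, had 40.5 ± 5.70 CPM in DSY-c2 naive cells against 53.1 ± 6.91 CPM in DSY-c2 primed cells (edgeR adjusted p = 0.113) and 59.1 ± 4.16 CPM in N40 naive cells against 59.8 ± 10.2 CPM in N40 primed cells (edgeR adjusted p = 0.484), and passed in neither line.

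Of 6 genes that ERK induces as its own feedback, 2 fell and 0 rose in DSY-c2, where 29.3% of all genes fell and 29.6% rose. In N40, 3 fell and 1 rose, where 28.7% of all genes fell and 32.3% rose. SPRY1, a feedback inhibitor of ERK, fell to 2.79 ± 1.24 CPM in DSY-c2 naive cells against 7.14 ± 0.778 CPM in DSY-c2 primed cells (-1.25, edgeR adjusted p = 0.00223) and to 0.988 ± 0.282 CPM in N40 naive cells against 9.22 ± 3.41 CPM in N40 primed cells (-3.08, edgeR adjusted p = 6.13e-07). Of 11 tested genes that AP-1 can activate, 0 rose and 2 fell in DSY-c2, and 1 rose and 5 fell in N40, beside the same shares of all genes. PLAU, the urokinase gene, fell to 10.6 ± 6.13 CPM in DSY-c2 naive cells against 76.3 ± 32.2 CPM in DSY-c2 primed cells (-2.76, edgeR adjusted p = 7.66e-05) and to 5.40 ± 1.47 CPM in N40 naive cells against 45.8 ± 4.09 CPM in N40 primed cells (-2.94, edgeR adjusted p = 4.13e-05). Of 8 heat shock genes, 3 rose and 2 fell in DSY-c2 and 5 rose in N40, where BAG3, a co-chaperone, had 79.7 ± 6.54 CPM in N40 naive cells against 57.5 ± 15.4 CPM in N40 primed cells (0.62, edgeR adjusted p = 0.0025).

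**Figure D5:**
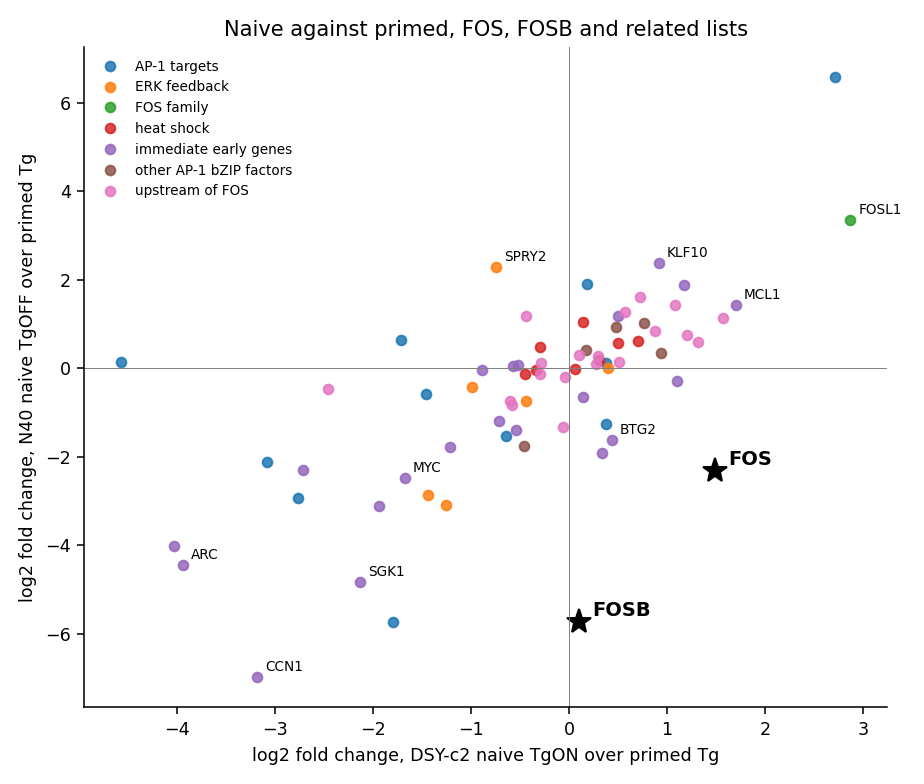
Log2 fold change of naive over primed cells in DSY-c2 (horizontal axis) and N40 (vertical axis) for FOS and FOSB (stars) and the tested genes of 7 related lists (points, coloured by list). FOS lies at 1.49 and -2.31, in the quadrant of a positive value in DSY-c2 and a negative one in N40. FOSB lies at 0.10 and -5.72. Its DSY-c2 value (SE 0.77) ranged from -0.37 to 1.14 with 1 library left out, so its sign there is not settled.

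Markers of other cells moved with the naive state and are given beside these lists. The shares of all genes were 29.6% higher and 29.3% lower in DSY-c2, and 32.3% higher and 28.7% lower in N40. The fibroblast marker sum was 67 to 185 CPM in DSY-c2 naive cells against 312 to 393 CPM in primed cells, where 1 of 6 markers rose and 3 fell, and 180 to 442 CPM in N40 naive cells against 595 to 842 CPM in primed cells, where 3 rose and 2 fell. The mesoderm marker sum was 2.48 to 2.76 CPM in DSY-c2 naive cells against 45.9 to 265 CPM in primed cells, where 1 of 5 rose and 4 fell, and 2.36 to 4.10 CPM in N40 naive cells against 6.38 to 11.1 CPM in primed cells, where 1 rose. The blood and endothelium sum was higher in naive cells of both lines. The trophectoderm and primitive endoderm sums were higher in naive cells of N40, while in DSY-c2 the naive and primed libraries overlapped. The blood and endothelium sum was 911 to 1030 CPM in DSY-c2 naive cells against 136 to 294 CPM in primed cells, where 1 of 4 markers rose, and 1180 to 1240 CPM in N40 naive cells against 158 to 228 CPM in primed cells, where 2 rose. The trophectoderm sum was 14.9 to 173 CPM in DSY-c2 naive cells against 62.8 to 115 CPM in primed cells, where 2 of 4 rose, and 45.9 to 80.8 CPM in N40 naive cells against 6.41 to 8.13 CPM in primed cells, where 4 of 4 rose. The primitive endoderm sum was 149 to 195 CPM in DSY-c2 naive cells against 42.8 to 476 CPM in primed cells, where 2 of 6 rose and 1 fell, and 103 to 157 CPM in N40 naive cells against 14.8 to 24.5 CPM in primed cells, where 3 rose. Of all these markers, CDX2 in N40 primed cells alone had no count in a group. The part of these markers in the results was not tested. Within the libraries of columns ending in L6 and L7, which leaves out DSY-c2 naive replicate 3, the DSY-c2 effect was 1.32 for FOS and 0.14 for FOSB.

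In embryos the immediate early genes that passed split evenly in the first step. Of 20 tested, 3 rose and 3 fell in the mean of 5 ICM stages against the morula, where 8.65% of all genes rose and 12.2% fell, and the median log2 fold change was -0.51 against 0 over all genes. ZFP36 rose, at 59.0 ± 55.4 CPM in 15 ICM libraries against 4.66 ± 2.68 CPM in the morula (3.31, edgeR adjusted p = 0.00692), and PLK2 rose to 96.5 ± 72.1 CPM in ICM against 0.237 ± 0.182 CPM in the morula (8.48, edgeR adjusted p = 0.000586). SGK1 fell to 45.6 ± 56.3 CPM in ICM against 383 ± 150 CPM in the morula (-3.51, edgeR adjusted p = 0.000352). Above FOS, MAPK3, the kinase ERK1, rose to 122 ± 64.1 CPM in ICM against 3.78 ± 2.13 CPM in the morula (4.90, edgeR adjusted p = 8.68e-06). Of the heat shock genes 4 of 8 rose and 0 fell, led by HSPB1 at 799 ± 453 CPM in ICM against 59.6 ± 29.9 CPM in the morula (3.61, edgeR adjusted p = 0.000169).

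The share of immediate early genes that rose in the epiblast was near that of all genes. Of 20 immediate early genes, 6 rose and 2 fell in the epiblast, where 26.1% of all genes rose and 18.7% fell, and the median log2 fold change was -0.24 against 0.20 over all genes. SGK1 rose to 926 ± 38.6 CPM in the epiblast against 45.6 ± 56.3 CPM in ICM (4.74, edgeR adjusted p = 6.86e-06), MYC rose to 338 ± 20.7 CPM in the epiblast against 115 ± 123 CPM in ICM (2.02, edgeR adjusted p = 0.000177), and ARC rose to 5.23 ± 2.57 CPM in the epiblast against 0.223 ± 0.523 CPM in ICM (6.33, edgeR adjusted p = 0.00521). KLF10, a TGF-beta inducible factor, fell to 40.2 ± 10.2 CPM in the epiblast against 249 ± 166 CPM in ICM (-2.53, edgeR adjusted p = 0.000848). FOSL1 fell to 0.240 ± 0.107 CPM in the epiblast against 14.5 ± 21.6 CPM in ICM (-4.39, edgeR adjusted p = 0.0419). That ICM mean and SD pool stages with different levels. FOSL1 stood at 0, 0.0454 and 0.133 CPM in early blastocyst ICM and at 0.0867 CPM in blastocyst ICM replicate 2. None of these libraries lay above the epiblast range of 0.12 to 0.325 CPM. All other ICM libraries did, with 5.1 to 87.7 CPM in the expanded, hatching and hatched stages. The fall is thus not seen against early blastocyst ICM. The FOSL1 call was lost in 8 of the 18 settings that left out 1 library, with an edgeR adjusted p of up to 0.141. Those were the settings without each epiblast library, blastocyst ICM replicate 3, expanded replicate 2, hatching replicate 3 and hatched replicates 1 and 3. Of 8 tested genes that AP-1 can activate, 3 rose and 1 fell: CD44, a hyaluronan receptor, rose to 94.7 ± 9.89 CPM in the epiblast against 8.10 ± 12.2 CPM in ICM (4.05, edgeR adjusted p = 0.000131), and PLAUR, the urokinase receptor, fell to 10.2 ± 6.08 CPM in the epiblast against 77.0 ± 53.1 CPM in ICM (-2.79, edgeR adjusted p = 0.00299).

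All 6 fibroblast markers rose in the epiblast, where 26.1% of all genes rose. Their sum was 1590 to 1800 CPM in the epiblast against 0 to 31.5 CPM in ICM libraries, with DCN listed at 0 in every ICM group. The mesoderm marker sum was 107 to 112 CPM in the epiblast against 0.0484 to 10.9 CPM in ICM, and 4 of 5 rose. The part of cells with these markers was not tested.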

How the data were processed

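The deposited values are raw counts per gene, and per the submitters' processing notes the authors used Trim Galore 0.4.0, STAR 2.5.3a and featureCounts 1.5.2. The genome build is not given in the sources used here. Per the labels' protocols, RNA of ESCs and embryos came from RNeasy Mini kits and poly(A)+ libraries from TruSeq Stranded mRNA LT kits. The 2 run columns of a library were summed, and 6 columns that match no sample of the series were not used. Of counts from 1 to 49, 64.1% were even, against 50.7% of counts of 500 and more, so mates may have been counted apart and halved counts were tried.

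ESC and embryo libraries were fitted apart with edgeR 4.0.16 in R 4.3.3 (filterByExpr, TMM, quasi-likelihood test, Benjamini-Hochberg adjustment over all genes tested, threshold 0.05). The standard error (SE) is the log2 fold change over the root of the F statistic, with a prior count of 2 in log2 CPM. DESeq2 1.42.0 served as an alternative, beside other filters, scalings and left-out libraries. Tests were checked on simulated data. Symbols came from a gene name table, for 12660 of 30811 genes (41.1%). The members and lists were chosen with earlier results of these data known. Named genes are, per list and comparison, up to 6 called members with the largest log2 fold change and at least 1 CPM, the FOS family and SRF, and the 5 genes most like each member. MCL1 in N40, NR4A1, and the immediate early genes described within N40 primed and ICM libraries fall outside this rule and were chosen after their values were seen. A result for 1 listed gene is not reported here.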

Additional observations from a re-analysis of the deposited data

Results flagged for a closer look

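For 17 listed genes the naive effect differed between the lines in a test of the difference itself (DSY-c2 effect minus N40 effect, log2, edgeR adjusted p), and 16 of them are given here. In this test 15.1% of all genes passed. Genes that fell in both lines, but less in DSY-c2, were MYC (0.81, adjusted p = 0.013), CCN1 (3.79, adjusted p = 0.0143), SGK1 (2.69, adjusted p = 0.0104) and SPRY1 (1.83, adjusted p = 0.0103). BTG2 (2.04, adjusted p = 0.00747), TIMP1 (1.65, adjusted p = 0.00171), RPS6KA3 (1.27, adjusted p = 0.0422) and TIPARP (1.38, adjusted p = 0.0465) had a higher effect in DSY-c2, as FOS did. MAP2K1 rose in both lines and more in DSY-c2 (0.73, adjusted p = 0.000985).

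The difference was negative for KLF10 (-1.45, adjusted p = 0.0182), CRTC2 (-0.68, adjusted p = 0.0361), CRTC3 (-1.63, adjusted p = 0.000681), RPS6KA2 (-1.98, adjusted p = 0.00189), RPS6KA5 (-0.88, adjusted p = 0.0343), SPRY2 (-3.02, adjusted p = 0.0438) and HSP90AA1 (-0.79, adjusted p = 0.0358). SPRY2 lay below a floor of 3 counts in N40 primed cells, so the size of its difference is uncertain. The calls of SPRY2, HSP90AA1, KLF10, TIPARP, RPS6KA3, RPS6KA5 and CRTC2 were each lost when some 1 library was left out. With the replicate block, SPRY1 (adjusted p = 0.0883), SGK1 (adjusted p = 0.101) and MYC (adjusted p = 0.0785) also lost theirs, which left 6 of the 16 called in every alternative. TgON and TgOFF in the titles go with the lines and cannot be told apart from them.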

How the results depend on the processing

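FOS and FOSB kept their direction under the scalings, filters and halved counts tried. Leaving out 1 library moved FOS in DSY-c2 primed minus DSY127 between -1.12 and 0.34 (reversed at 0.01, 0.09, 0.03 and 0.34), FOSB in N40 naive minus primed between -6.30 and -4.31, FOSB in the difference between lines from 4.35 to 6.95, and FOSB in N40 primed minus No.40 from 1.56 to 3.55. The genes called then ranged from 368 to 1165 in DSY127 minus No.40, 146 to 262 in DSY-c2 primed minus DSY127, 2571 to 4740 in N40 primed minus No.40 and 2249 to 3896 in ICM minus morula. List genes called ranged from 0 to 1 in both comparisons with DSY127, 14 to 30 in N40 primed minus No.40, 10 to 15 in the difference and 15 to 29 in epiblast minus ICM.

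With only the groups compared, DSY127 minus No.40 had 430 genes and 2 list genes, DSY-c2 primed minus DSY127 had 2 list genes, and N40 primed minus No.40 had 1748 genes and 15 list genes, with FOS at 3.80 and FOSB at 3.05. The DESeq2 test gave 1541 genes and 3 list genes in DSY127 minus No.40, and 545 and 1 in DSY-c2 primed minus DSY127. Without a low-count filter, 0 list genes passed in DSY127 minus No.40. With TMM within ESC libraries, a choice made after seeing the data, FOS in N40 naive cells was 45.3 CPM. The FOS and FOSB r was 0.55 in ESC and -0.10 in embryo libraries, and that of deviations, 0.45 over 39 libraries, was 0.93, 0.94 and 0.04 in the subsets added after seeing the data.

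Same-numbered libraries did not deviate together in every pair, so the numbers were not taken as a pairing. With the replicate block FOSB in DSY-c2 was 1.20, the difference had 1271 genes and 10 list genes, DSY127 minus No.40 had 0 list genes, and DSY-c2 primed minus DSY127 had 10 genes. The cause of these changes was not tested.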
